A study of Mus musculus with 12 samples.

Results

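The genes described here encode the contractile and calcium-handling proteins of skeletal muscle, with a few enzymes and carriers that supply the fiber with energy and oxygen. They were chosen by name: every probe of the deposited normalized table whose gene symbol, in any letter case, was among 47 listed genes was taken. This gave 44 genes and 68 probes, out of 15434 gene symbols and 21004 probes in the table. The genes were arranged by role as 12 fast contractile, 7 slow contractile, 9 calcium handling, 11 shared sarcomere and developmental, and 5 energy supply and oxygen storage genes. The other 3 listed genes had no probe in the table and were dropped: Myh7, the slow myosin heavy chain, had 3 probes on the array, Trdn 1 and Mybpc1 0, and none of these probes was detected on any array.

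RNA of hip cartilage from C57BL6 mice aged 4 to 6 weeks per the labels (the methods give a narrower range) was measured on 12 Illumina mouse BeadChips. The arrays form 4 groups of 3: control and injured cartilage of wild-type (WT) mice, and control and injured cartilage of mice without Mapk9 (Mapk9 KO), the gene of the stress-activated kinase JNK2. Injury was the avulsion of the femoral head cartilage from freshly culled mice, followed by 4 h of culture in serum-free medium, whereas control cartilage was frozen at once, so injury and culture cannot be told apart. The methods pool the hips of several mice into each replicate and speak of independent biological replicates, but they describe no Mapk9 KO arrays, whose groups come from the labels alone. Values are log2 of the normalized bead signal. They compare arrays for the same probe, not the levels of different genes. A probe was called detected on an array where its deposited detection p was under 0.05, and log2 values of the dimmest detected probe lay between 5.62 and 6.05. A gene is said to have risen or fallen where at least 1 of its probes changed by more than 2-fold with an adjusted p under 0.05 in limma.

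A skeletal muscle fiber shortens when myosin heavy chains in thick filaments pull on actin in thin filaments, with nebulin and titin holding the filaments in register. Calcium released from the sarcoplasmic reticulum through the ryanodine receptor binds troponin C and frees the thin filament, and a calcium pump then returns it to the store. Fast and slow fibers use different genes for myosin, the myosin light chains and the 3 troponin subunits. Cartilage has no such fibers, but muscle and its tendons surround the hip.

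The stretches just upstream of the annotated start sites of 8 of these genes are shown because they hold matches to motifs known from muscle promoters and because the genes span all roles but energy supply. They come from RefSeq (GRCm38.p6) and run 5′ to 3′ on the strand of the gene, from 110 bases before the start site to the base before it. Capitals mark matches, on either strand, to TATAAA, to CAGCTG (a form of the E-box, the site of myogenic factors such as MyoD), to the MEF2 site or to the CArG box (the site of serum response factor).
Myh4, fast myosin heavy chain, chr11:67237702-67237811 (+): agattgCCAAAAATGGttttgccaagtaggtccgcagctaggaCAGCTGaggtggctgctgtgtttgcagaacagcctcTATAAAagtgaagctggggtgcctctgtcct
Mylpf, fast regulatory light chain, chr7:127211498-127211607 (+): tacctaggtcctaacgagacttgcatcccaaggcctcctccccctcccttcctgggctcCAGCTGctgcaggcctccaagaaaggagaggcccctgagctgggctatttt
Myl3, slow light chain, chr9:110763568-110763677 (+): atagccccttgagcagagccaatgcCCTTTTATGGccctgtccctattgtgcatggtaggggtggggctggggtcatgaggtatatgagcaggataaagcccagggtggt
Tnnt1, slow troponin T, chr7:4515976-4516085 (-): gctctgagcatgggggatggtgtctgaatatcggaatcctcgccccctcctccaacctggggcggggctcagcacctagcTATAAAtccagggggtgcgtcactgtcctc
Myoz2, slow-fiber myozenin, chr3:123034988-123035097 (-): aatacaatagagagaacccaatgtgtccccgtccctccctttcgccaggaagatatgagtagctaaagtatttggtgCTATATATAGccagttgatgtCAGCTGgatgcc
Atp2a1, fast calcium pump, chr7:126463074-126463183 (-): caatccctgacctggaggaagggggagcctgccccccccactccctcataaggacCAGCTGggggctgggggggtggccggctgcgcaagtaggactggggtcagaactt
Acta1, skeletal alpha-actin, chr8:123894776-123894885 (-): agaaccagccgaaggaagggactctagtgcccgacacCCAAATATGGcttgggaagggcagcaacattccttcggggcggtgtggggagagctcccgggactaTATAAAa
Des, desmin, chr1:75360182-75360291 (+): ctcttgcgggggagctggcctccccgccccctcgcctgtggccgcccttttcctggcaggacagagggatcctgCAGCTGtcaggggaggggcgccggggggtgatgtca

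Of the 44 genes, 34 matched the RefSeq promoter table, with 42 promoters of 300 bases in all (250 before the start site and 50 after it). CAGCTG was present in 23 of these 42 promoters (54.8%), against 16.3% of all 32851 promoters in the table. The CArG box was present in 5 (11.9%, against 1.63%), the MEF2 site in 2 (4.76%, against 0.557%) and TATAAA in 9 (21.4%, against 13.6%). The genes with CAGCTG were 3 of 7 matched fast, 4 of 7 slow, 4 of 7 calcium handling, 4 of 9 shared and 4 of 4 energy genes. The motifs overlap no other motif of the set in the stretches shown, and these shares are a description of the letters only. The genes Actn3, Ampd1, Jph1, Mylk2, Myoz1, Neb, Sln, Tcap, Tnni2 and Tnnt3 had no entry in the table.

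Across the whole table, array medians lay between 7.55 and 7.70, correlations between arrays between 0.868 and 0.986, and 16930 to 18969 probes were detected per array. The brighter probe of Mapk9 read 10.88, 10.90 and 10.50 on the WT controls and 9.14, 9.28 and 9.15 on the Mapk9 KO controls, and was detected on every array of both genotypes. Its other probe in the table was detected on all 3 WT controls, on 1 of 3 WT injured arrays and on 0 of the 6 Mapk9 KO arrays. Col2a1, the main collagen of cartilage, lay between 13.46 and 14.52 on all 12 arrays. Of 10 chondrocyte markers 7 had probes in the table, all detected on all 12 arrays with their brightest probe, and Acan, Matn3 and Lect1 had no probe there.

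The WT control arrays were far from alike for the muscle genes, which touches every comparison that uses them. Each gene is represented by its brightest probe over all arrays, called its main probe. WT control replicate 3 was the highest of the 3 WT controls for 36 of 44 main probes, and replicate 2 the lowest for 35. The median SD of the main probes was 1.40 among WT controls against 0.28 for the main probes of all genes. Among Mapk9 KO controls the corresponding values were 0.23 and 0.22. In slow genes WT control replicate 3 exceeded the mean of the other 2 WT controls by a median of 2.46 on the log2 scale, and in fast genes by 2.35. The brightest probes were an exception. The highest value of any probe was 13.65 to 14.81 per array, and for the 7 main probes that passed 14 on some array (Tnnc2, Acta1, Mylpf, Pvalb, Atp2a1, Myl1 and Tnni2) the median excess was 0.097, against 2.46 for the other 37. The median injury change of these 7 was -1.85 in WT and -2.88 in Mapk9 KO, against -2.62 and -4.34 for the other 37, so that folds and spreads of these bright probes may not be set against those of dimmer ones. The part of the upper end of the signal range in this was not tested. The share of the summed signal of all main probes taken by the muscle genes was 0.770%, 0.632% and 1.58% on WT controls 1, 2 and 3, and 1.91%, 1.65% and 1.61% on the Mapk9 KO controls. After injury it was 0.120%, 0.207% and 0.356% in WT and 0.200%, 0.271% and 0.161% in Mapk9 KO. By this share WT control replicate 3 was close to the Mapk9 KO controls, and WT control replicates 1 and 2 lay between them and the injured arrays. The summed signal itself was 187392 on WT control replicate 3, below the 210083 to 283050 of the Mapk9 KO controls. In such bulk samples, fewer muscle fibers in the tissue and less RNA per fiber cannot be told apart.

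**Figure D1:**
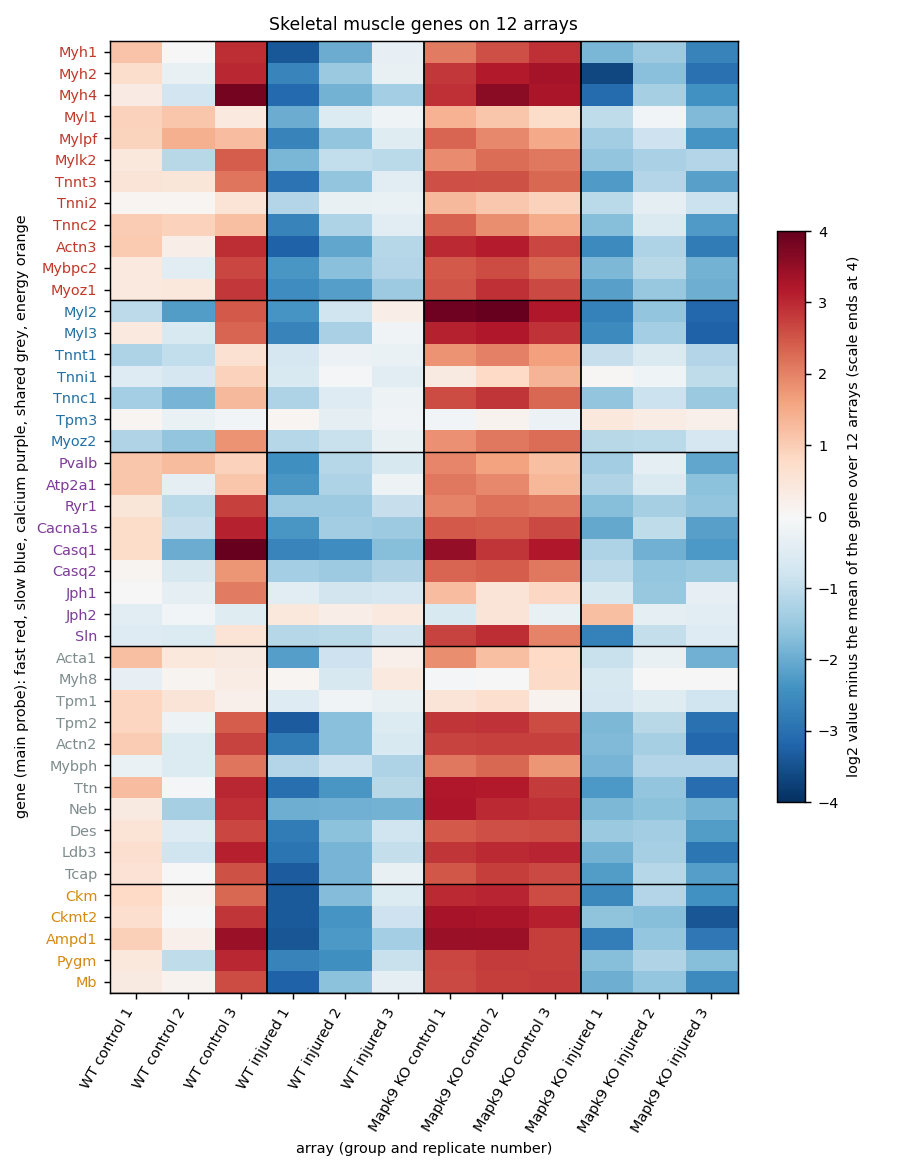
Heat map of the main probe of each of the 44 genes (rows, ordered by role) on the 12 arrays (columns), as log2 value minus the gene's mean over all arrays; the color scale ends at 4 in either direction. WT control replicate 3 is near the 3 Mapk9 KO controls for most genes but paler for slow genes. WT controls 1 and 2 are paler, and for some genes blue, such as the slow genes Tnnc1 and Tnnt1, where they lie below the WT injured arrays. The injured arrays of both genotypes are blue for most genes, with Tpm3, Jph2 and Myh8 among the exceptions.

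Injury lowered most of the muscle genes in WT. Of the 44 genes 27 fell and 0 rose, in a comparison where 8.24% of all genes fell and 8.35% rose. With the test that the methods name, which takes the spread of each probe on its own, and Benjamini-Hochberg adjustment, 0 of the 44 genes passed in WT, while 1624 probes of the table did. The genes that fell were 10 of 12 fast, 0 of 7 slow, 4 of 9 calcium handling, 8 of 11 shared and 5 of 5 energy genes. This fit did not use the replicate numbers, and with them as a block the slow gene Myl3 passed as well. The median log2 change of the main probes was -2.53 over all 44 genes, -2.66 over fast, -0.28 over slow, -1.85 over calcium handling, -2.63 over shared and -2.96 over energy genes, while the median over all probes of the table was -0.02. For 30 main probes all injured arrays lay below all WT controls, which held for 21% of the main probes of all genes. The count of genes that fell depended on single arrays: it was 17 without WT control replicate 1, 14 without WT injured replicate 1 and 17 without WT injured replicate 2, and stood between 23 and 34 when any of the other 3 arrays was left out. Of the 27 main probes called in WT 12 were called whichever array was left out, and 15 lost the call in at least 1 of the 6 fits: Acta1, Actn2, Atp2a1, Cacna1s, Casq2, Des, Ldb3, Mb, Mybpc2, Myh2, Myh4, Myl1, Neb, Pygm and Tcap. Without WT control replicate 3 the median change of slow genes turned to 0.62 and that of calcium-handling genes was -1.07.

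In Mapk9 KO the fall took in nearly all of the genes. There 42 of 44 genes fell and 0 rose, where 10.4% of all genes fell and 10.6% rose. They comprised 12 of 12 fast, 6 of 7 slow, 8 of 9 calcium handling, 11 of 11 shared and 5 of 5 energy genes, with Tpm3 and Jph2 the exceptions. The count takes in Jph1, undetected on every Mapk9 KO array, Tnni1, near the limit of detection, and Myh8, called on its dim second probe alone. With undetected values at the lowest detected value Jph1 changed by -0.08 and Tnni1 by -0.42, and neither passed. Median log2 changes of the main probes were -4.19 for fast, -3.01 for slow, -3.63 for calcium handling, -4.49 for shared and -4.93 for energy genes, and -4.15 for all 44. All injured arrays lay below all controls for 41 main probes (26.5% of the main probes of all genes did). Leaving out any single array left 41 or 42 genes called.

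**Figure D2:**
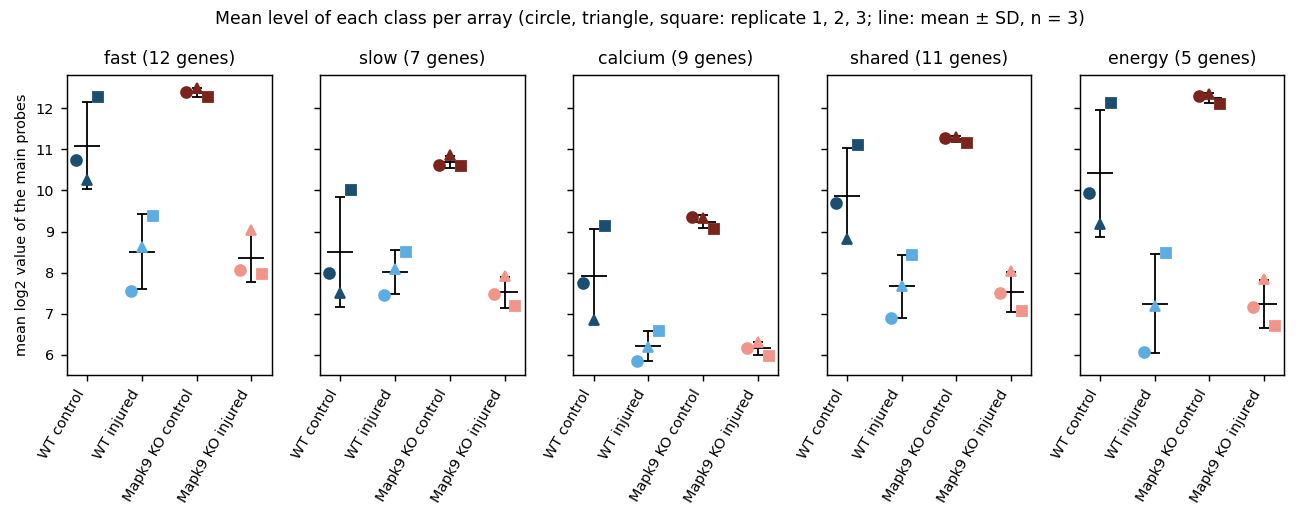
Mean log2 value over the main probes of each role on each array (points; circle, triangle and square for replicates 1, 2 and 3), with the mean ± SD of the 3 arrays of a group as lines. In fast genes the WT controls spread from 10.26 to 12.27 and the Mapk9 KO controls from 12.26 to 12.48, and in slow genes the WT controls at 7.51 to 10.01 overlap the WT injured arrays at 7.45 to 8.51.

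The mean level over the 12 fast main probes was 11.09 ± 1.05 (SD, n = 3) on WT controls and 8.51 ± 0.92 on WT injured arrays, and 12.38 ± 0.11 and 8.36 ± 0.58 on the Mapk9 KO arrays. For the 7 slow genes the same means were 8.50 ± 1.33 and 8.02 ± 0.53 in WT, and 10.69 ± 0.15 and 7.53 ± 0.37 in Mapk9 KO. The 9 calcium-handling genes stood at 7.91 ± 1.15 and 6.22 ± 0.37 in WT, and at 9.24 ± 0.16 and 6.16 ± 0.16 in Mapk9 KO. Only 3 of these 9 main probes were detected on each WT injured array and 3 or 4 on the Mapk9 KO injured arrays. With undetected values at the lowest detected value the means were 8.28 and 7.10 in WT, and 9.36 and 7.13 in Mapk9 KO. WT control replicate 3, at 12.27 for fast and 9.13 for calcium-handling genes, lay within the range of the Mapk9 KO controls, but at 10.01 for slow genes it lay below all 3 of them (10.60 to 10.86). Within replicate numbers, which were taken as pairing the samples though the labels do not say so, injury changes were as follows. The median for the slow genes in WT was -0.02, 0.69 and -1.49 for replicates 1, 2 and 3, and in Mapk9 KO -2.94, -3.19 and -2.92. Fast genes changed by medians of -3.39, -1.84 and -3.31 in WT and -4.17, -3.71 and -4.32 in Mapk9 KO. The difference between roles was not tested.

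**Figure D3:**
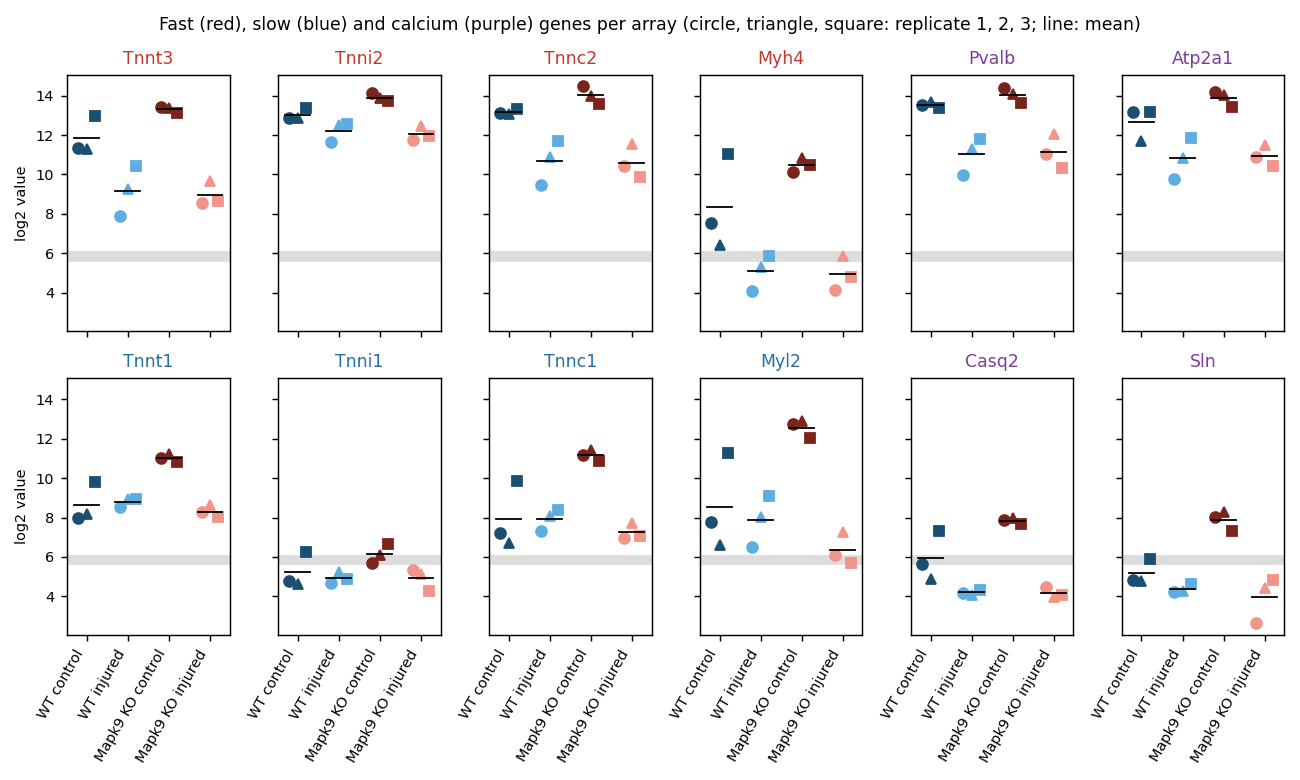
Log2 value of 12 main probes on each array, in fast (red), slow (blue) and calcium-handling (purple) genes; symbols give the replicate, lines the group mean, and the grey band the range of the dimmest detected probe over the arrays (5.62 to 6.05). Injured arrays lie below the controls in both genotypes for Tnnt3, Tnni2, Tnnc2 and Pvalb, whereas for Tnnt1, Tnnc1 and Myl2 the WT injured arrays overlap the WT controls.

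Among the fast genes, the troponin subunits Tnnt3 and Tnnc2 fell in both genotypes and Tnni2 in Mapk9 KO. In what follows, values on the 3 arrays of a group are given in the order of their replicate numbers. Tnnt3, fast troponin T, which ties the complex to tropomyosin, read 11.34, 11.31 and 12.98 on WT controls and 7.87, 9.27 and 10.42 on WT injured arrays. On the Mapk9 KO arrays it read 13.40, 13.38 and 13.13 in controls and 8.56, 9.68 and 8.66 post injury. The groups did not overlap in either genotype, and the injured WT arrays were spread more widely than the controls of Mapk9 KO. The log2 change was -2.69 ± 0.61 (SE) in WT (limma, adjusted p = 0.00943) and -4.34 ± 0.28 in Mapk9 KO (adjusted p = 1.07e-06). Tnnc2, fast troponin C, which binds calcium, read 13.13, 13.05 and 13.33 on WT controls and 9.45, 10.89 and 11.68 on WT injured arrays. Its Mapk9 KO values were 14.48, 13.99 and 13.59 in controls and 10.41, 11.55 and 9.86 post injury. No injured array reached a control, and the controls lay near the brightest values of their arrays. Tnnc2 changed by -2.50 ± 0.45 in WT (adjusted p = 0.00313) and by -3.41 ± 0.38 in Mapk9 KO (adjusted p = 5.2e-05).

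Tnni2, fast troponin I, the inhibitory subunit, was also among the brightest probes. It read 12.89, 12.88 and 13.35 on WT controls and 11.64, 12.50 and 12.55 on WT injured arrays. In Mapk9 KO it read 14.12, 13.87 and 13.73 in controls and 11.73, 12.44 and 11.96 post injury. The WT groups did not overlap but came close to each other, and the change of -0.81 ± 0.28 in WT did not pass (adjusted p = 0.0563; -0.51 without WT injured replicate 1; it passed with both quantile normalizations, at -1.16 and -1.14), whereas -1.86 ± 0.22 in Mapk9 KO did (adjusted p = 6.85e-05). Mylk2, the kinase of the myosin regulatory light chain, was the other fast gene that did not pass in WT. Its main probe read 8.77, 7.23 and 10.77 on WT controls and 6.53, 7.36 and 7.26 on WT injured arrays, and 10.24, 10.58 and 10.45 on Mapk9 KO controls and 6.77, 7.06 and 7.17 on Mapk9 KO injured arrays. WT control 2 lay among the WT injured arrays, and the WT change was -1.87 ± 0.69 (adjusted p = 0.0724). It was -2.72 and passed without WT control replicate 2 (adjusted p = 0.0018), and was -0.95 without replicate 3.

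Myh4, the heavy chain of the fastest fibers, was detected on no WT injured array. It read 7.53, 6.44 and 11.02 on WT controls, the third far above the others, and 4.10, 5.31 and 5.84 on WT injured arrays. Mapk9 KO controls were tight at 10.14, 10.83 and 10.46, and the injured arrays read 4.13, 5.86 and 4.78 with 1 of 3 detected. Myh4 was at least 5.60-fold lower in injured WT cartilage (log2 change -3.24 ± 0.94, adjusted p = 0.0295), a bound set against the dimmest detected probe of each array, and changed by -5.55 ± 0.37 in Mapk9 KO (adjusted p = 1.46e-06). The WT values rested on WT control replicate 3, without which the change was -1.90 and the bound 2.20-fold, and the call was lost without any 1 of WT control replicate 1 and WT injured replicates 1 and 2 (adjusted p = 0.0523 to 0.0999) and with normexp and quantile normalization (-2.72, adjusted p = 0.0594). Actn3, the Z-disc alpha-actinin of fast fibers, read 11.05, 10.27 and 12.98 on WT controls and 6.77, 7.94 and 8.88 on WT injured arrays. On the Mapk9 KO arrays its values were 12.99, 13.15 and 12.68 in controls and 7.48, 8.78 and 7.20 post injury. Every injured array was below every control, and the change was -3.57 ± 0.66 in WT (adjusted p = 0.00347) and -5.12 ± 0.35 in Mapk9 KO (adjusted p = 1.69e-06). The other fast genes, Myh1 and Myh2 (heavy chains), Myl1 and Mylpf (light chains), Mybpc2 (fast myosin-binding protein C) and Myoz1 (a Z-disc protein), fell in both genotypes, by main-probe changes of -3.28 to -1.72 in WT and -5.88 to -2.03 in Mapk9 KO. The smaller ends are those of the bright main probe of Myl1, whose dimmer probe changed by -4.51 ± 0.98 in WT (adjusted p = 0.00794) and was at least 31.5-fold lower in Mapk9 KO (log2 change -5.63 ± 0.36). Myh2 went from 12.47 ± 0.27 to 6.60 ± 1.01 (SD, n = 3) in Mapk9 KO. In WT its call was lost in 4 of the 6 fits with an array left out (adjusted p = 0.0643 to 0.108; change of -1.68 without WT control replicate 3), that of Mybpc2 without WT injured replicate 1 (adjusted p = 0.0563; change of -1.71 without WT control replicate 3) and that of the main probe of Myl1 without WT control replicate 1 (adjusted p = 0.0511).

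No slow gene passed in WT, and 6 of 7 fell in Mapk9 KO. Tnnc1, slow troponin C, read 7.22, 6.71 and 9.86 on WT controls and 7.32, 8.05 and 8.37 on WT injured arrays. Its Mapk9 KO controls were far higher at 11.17, 11.43 and 10.86, and the injured arrays read 6.97, 7.71 and 7.07. WT controls 1 and 2 were thus below every WT injured array and WT control 3 was above them, so the change of -0.01 ± 0.67 in WT (adjusted p = 0.99) averages arrays on both sides. In Mapk9 KO the groups stood far apart, with a change of -3.90 ± 0.24 (adjusted p = 8.17e-07). Without WT control replicate 3 the WT change of Tnnc1 turned to 0.95 (adjusted p = 0.0619).

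For Tnnt1, slow troponin T, WT controls 1 and 2 again lay below all WT injured arrays and WT control 3 above them. It read 7.96, 8.20 and 9.80 on WT controls and 8.52, 8.96 and 8.92 on WT injured arrays, and 11.00, 11.21 and 10.83 on Mapk9 KO controls and 8.26, 8.62 and 8.02 on Mapk9 KO injured arrays. The change was 0.15 ± 0.41 in WT (adjusted p = 0.829), with the sign set by single controls (-0.19 without WT control replicate 1, -0.078 without replicate 2, 0.72 without replicate 3), and -2.71 ± 0.20 in Mapk9 KO (adjusted p = 3.12e-06). Tnni1, slow troponin I, was near the limit of detection throughout. Its WT controls read 4.80, 4.63 and 6.23 and its WT injured arrays 4.70, 5.23 and 4.90, with 1 of 6 detected. The Mapk9 KO controls read 5.68, 6.11 and 6.68, 2 of them detected, and the injured arrays 5.34, 5.13 and 4.29, none detected. Its fall in Mapk9 KO was at least 1.23-fold (log2 change -1.23 ± 0.31, adjusted p = 0.00928), and the WT change was -0.28 ± 0.38 (adjusted p = 0.641), or 0.23 without WT control replicate 3. The fall in Mapk9 KO was under the 2-fold limit without Mapk9 KO control replicate 3, without Mapk9 KO injured replicate 3 (-0.92 the smallest), and with normexp and quantile normalization (-0.83). Quantile normalization without background correction left -0.37, and with the test of the methods it did not pass (adjusted p = 0.114).

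Myl3, the slow essential light chain, had the largest WT change among the slow genes. It read 10.30, 9.32 and 12.27 on WT controls and 7.27, 8.62 and 9.78 on WT injured arrays. Mapk9 KO controls were at 13.00, 13.13 and 12.83 and injured arrays at 7.37, 8.56 and 6.69. The WT groups overlapped only through control 2 and injured array 3, and the change of -2.07 ± 0.73 did not pass (adjusted p = 0.0627), though it did with the replicate number as a block (adjusted p = 0.0109). It also passed without WT control replicate 2 (-2.73, adjusted p = 0.0104) or WT injured replicate 3 (-2.69, adjusted p = 0.0293), and was -1.26 without WT control replicate 3. In Mapk9 KO it was -5.45 ± 0.38 (adjusted p = 1.82e-06). Myl2, the slow regulatory light chain, went from 12.56 ± 0.45 to 6.36 ± 0.80 (SD, n = 3) in Mapk9 KO, a change of -6.20 ± 0.36. Its change in WT was -0.68 ± 1.02 (adjusted p = 0.67), and turned to 0.68 (adjusted p = 0.499) without WT control replicate 3 and to 0.015 without WT injured replicate 1, with -1.66 at the other end of the 6 fits. Myoz2 changed by -0.44 ± 0.71 in WT (adjusted p = 0.696; 0.62, adjusted p = 0.145, without WT control replicate 3) and by -3.01 ± 0.19 in Mapk9 KO (adjusted p = 1.15e-06). Tpm3, the tropomyosin of slow fibers, which many other cell types also make, lay between 10.58 and 11.34 on all 12 arrays, with changes of -0.05 ± 0.21 in WT and 0.37 ± 0.18 in Mapk9 KO (adjusted p = 0.887 and 0.125).

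**Figure D4:**
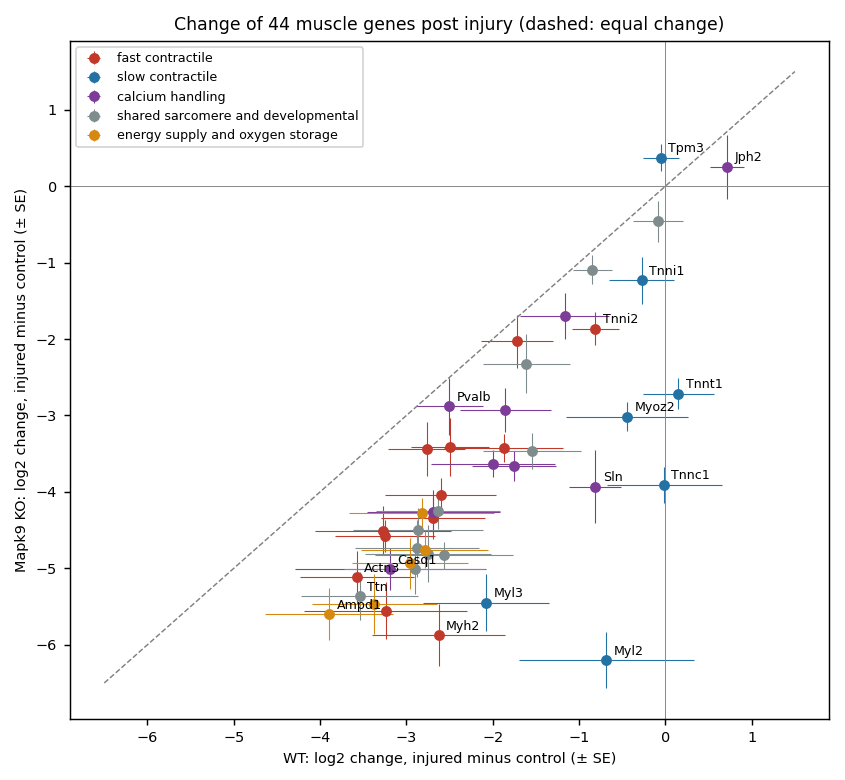
Log2 change post injury of the main probe of each gene in WT (horizontal) against Mapk9 KO (vertical), with SE of each as lines, colors for roles, and the dashed line marking equal change. All genes but Tpm3 lie below the line, and the slow genes Myl2, Tnnc1, Myl3, Tnnt1 and Myoz2 lie farthest from it with Sln and Myh2.

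The calcium-handling genes fell in part in WT and nearly all in Mapk9 KO. Pvalb, parvalbumin, the soluble calcium buffer of fast fibers, read 13.55, 13.70 and 13.36 on WT controls, near the brightest values of these arrays, and 9.98, 11.31 and 11.81 on WT injured arrays. Its Mapk9 KO values were 14.39, 14.06 and 13.65 in controls and 11.05, 12.08 and 10.35 post injury. The groups did not overlap in either genotype, and Pvalb changed by -2.50 ± 0.39 in WT (adjusted p = 0.0014) and -2.88 ± 0.37 in Mapk9 KO (adjusted p = 0.000151). Atp2a1, the calcium pump SERCA1 of fast fibers, read 13.18, 11.71 and 13.17 on WT controls and 9.77, 10.86 and 11.88 on WT injured arrays. On Mapk9 KO arrays it read 14.18, 14.01 and 13.41 in controls and 10.86, 11.50 and 10.43 post injury. WT control 2 fell just under WT injured array 3, the only overlap, and the changes were -1.85 ± 0.52 in WT (adjusted p = 0.026) and -2.93 ± 0.29 in Mapk9 KO (adjusted p = 2.23e-05). The WT call was lost in 4 of the 6 fits with an array left out, those without WT controls 1 or 3 or WT injured arrays 1 or 2 (adjusted p = 0.063 to 0.101), with changes over the 6 fits of -2.37 to -1.32.

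On the release side of the store the WT controls were spread widely. Ryr1, the ryanodine receptor, read 8.77, 7.22 and 11.03 on WT controls and 6.84, 6.83 and 7.36 on WT injured arrays. In Mapk9 KO its values were 10.27, 10.48 and 10.40 in controls and 6.58, 6.97 and 6.70 post injury. WT control 2 stood within the injured range, and the change of -1.997 ± 0.72 in WT did not pass (adjusted p = 0.069; 0.0307 with the replicate number as a block), against -3.63 ± 0.18 in Mapk9 KO (adjusted p = 2.27e-07). The WT change of Ryr1 was -2.89 and passed without WT control replicate 2 (adjusted p = 0.00171), and was -0.99 without replicate 3. Casq1, calsequestrin of fast fibers, which stores calcium in the reticulum, read 7.21, 4.49 and 10.44 on WT controls and 3.82, 3.98 and 4.77 on WT injured arrays, with 2 of the controls and none of the injured arrays detected. Mapk9 KO controls read 9.97, 9.32 and 9.65 and the injured arrays 5.23, 4.53 and 4.16, none of them detected. WT control 2 lay below injured array 3, far under the other controls, and the change of -3.19 ± 1.11 did not pass (adjusted p = 0.06; 0.0267 with the block). Without WT control replicate 2 it was -4.63 and passed (adjusted p = 0.000754), and without replicate 3 it was -1.66. The Mapk9 KO fall was at least 13.8-fold (log2 change -5.01 ± 0.28, adjusted p = 4.37e-07).

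Casq2, the calsequestrin of slow and cardiac fibers, read 5.64, 4.88 and 7.32 on WT controls, 2 of them detected, and 4.18, 4.08 and 4.33 on WT injured arrays, none detected. Mapk9 KO controls were at 7.87, 7.97 and 7.65 and the injured arrays, undetected, at 4.48, 3.97 and 4.06. Groups did not overlap in either genotype, and the falls were at least 1.08-fold in WT (log2 change -1.75 ± 0.49, adjusted p = 0.0249) and at least 3.93-fold in Mapk9 KO (-3.66 ± 0.19, adjusted p = 3.74e-07). Without WT control replicate 3 the WT change was -1.07 and no bound could be given, since the mean of the other 2 controls lay under the dimmest detected probes, and the call was lost without WT control replicate 1 or any 1 of the injured arrays (adjusted p = 0.0517 to 0.0694). Quantile normalization without background correction gave -0.53 in WT (adjusted p = 0.0948). Cacna1s, the voltage sensor of the calcium release unit, was at least 2.53-fold lower post injury in WT (log2 change -2.69 ± 0.77, adjusted p = 0.0283) and at least 7.25-fold lower in Mapk9 KO (-4.26 ± 0.28, adjusted p = 1.25e-06). Its WT call was lost without the same arrays as that of Casq2 (adjusted p = 0.053 to 0.092), and without WT control replicate 3 its change was -1.63 and its bound 1.21-fold. Jph1 and Jph2, junctophilins that hold the reticulum against the membrane, were dim: Jph1 was detected on 1 array, a WT control, and its main probe changed by -1.17 ± 0.51 in WT (adjusted p = 0.127) and by -1.70 ± 0.30 in Mapk9 KO (adjusted p = 0.00119), where both groups were undetected. Jph1 is therefore counted as fallen in Mapk9 KO on undetected values alone. With these at the lowest detected value its change there was -0.08 (adjusted p = 0.74). Jph1 passed in WT without WT control replicate 2 (-1.65, adjusted p = 0.0208) and was -0.41 without replicate 3. Jph2 moved the other way in WT, by 0.71 ± 0.20 (adjusted p = 0.0239), which is under the 2-fold limit and rests on 6 undetected values of 4.85 to 5.74. Its second probe, detected on no array, changed by 0.41 ± 0.33 in WT.

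Sln, sarcolipin, a small inhibitor of the calcium pump, was detected on the Mapk9 KO controls and on no other array. It read 8.04, 8.30 and 7.32 there, against 4.83, 4.79 and 5.90 on WT controls, 4.199, 4.28 and 4.61 on WT injured arrays, and 2.64, 4.40 and 4.83 on Mapk9 KO injured arrays. The Mapk9 KO controls thus stood above all other arrays. Sln was at least 4.08-fold lower post injury in Mapk9 KO (log2 change -3.93 ± 0.48, adjusted p = 9.88e-05). In WT the change of -0.81 ± 0.30 did not pass (adjusted p = 0.0762), but it did without WT control replicate 2 (-1.003, adjusted p = 0.0329), and it was -0.45 without replicate 3.

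Of the genes that fast and slow fibers share, 8 of 11 fell in WT. Acta1, the actin of the skeletal thin filament, read 13.82, 13.04 and 12.98 on WT controls and 10.42, 11.77 and 12.82 on WT injured arrays. On Mapk9 KO arrays it read 14.48, 13.82 and 13.41 in controls and 11.72, 12.33 and 10.70 post injury. WT injured array 3 came just under the controls, and the change was -1.61 ± 0.50 in WT (adjusted p = 0.0394; 0.0628 with the block, under which it did not pass) and -2.32 ± 0.38 in Mapk9 KO (adjusted p = 0.000786). The WT call was also lost without WT controls 1 or 3 or WT injured arrays 1 or 2 (adjusted p = 0.0567 to 0.143), with changes over the 6 fits of -2.19 to -0.98. Des, desmin, the intermediate filament around the Z-disc, read 9.53, 8.46 and 11.67 on WT controls and 6.21, 7.34 and 8.20 on WT injured arrays. Its Mapk9 KO controls were nearly equal at 11.46, 11.56 and 11.60 and the injured arrays read 7.52, 7.59 and 6.76. No injured array reached a control, and Des changed by -2.63 ± 0.72 in WT (adjusted p = 0.0223) and -4.25 ± 0.23 in Mapk9 KO (adjusted p = 4e-07). The WT call of Des was lost without any 1 of WT control replicate 1 and WT injured replicates 1 and 2 (adjusted p = 0.0523 to 0.0816), and its change was -1.74 without WT control replicate 3.

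Ttn, titin, the spring that spans from Z-disc to M-line, had 4 probes that did not move as a set. Its main probe read 11.11, 9.83 and 12.88 on WT controls and 6.88, 7.56 and 8.76 on WT injured arrays. In Mapk9 KO it read 13.07, 13.06 and 12.68 in controls and 7.60, 8.30 and 6.82 post injury. The changes were -3.54 ± 0.68 in WT (adjusted p = 0.00415) and -5.37 ± 0.32 in Mapk9 KO (adjusted p = 6.85e-07), and 2 further probes also fell in both genotypes. The fourth probe, ILMN_2499436, stayed between 5.79 and 6.39 on all 12 arrays, with a change of 0.00 ± 0.20 in WT (adjusted p = 0.989) and -0.11 ± 0.19 in Mapk9 KO. Myh8, the perinatal myosin heavy chain, was near the detection limit: its main probe read 5.17, 5.61 and 5.79 on WT controls, 5.56, 4.84 and 5.89 on WT injured arrays, 5.46, 5.49 and 6.27 on Mapk9 KO controls and 4.85, 5.50 and 5.50 on Mapk9 KO injured arrays. These groups overlapped in both genotypes, and only its second probe passed in Mapk9 KO, where it was at least 1.06-fold lower (log2 change -1.49 ± 0.22, adjusted p = 0.000336). Myh8 is therefore counted as fallen in Mapk9 KO on a probe detected on 1 of the 3 Mapk9 KO controls.

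The other shared genes were Tpm1 and Tpm2 (tropomyosins), Actn2 (Z-disc alpha-actinin), Neb (nebulin), Ldb3 and Tcap (Z-disc proteins) and Mybph (a relative of myosin-binding protein C). Neb was detected on no injured array and was at least 1.29-fold lower in WT and at least 6.72-fold lower in Mapk9 KO (log2 change -2.56 ± 0.80 and -4.83 ± 0.17, adjusted p = 0.0393 and 6.22e-08). In WT its call was lost in 4 of the 6 fits with an array left out (adjusted p = 0.082 to 0.0919), and without WT control replicate 3 its change was -1.42, with no bound. The WT calls of Actn2, Ldb3 and Tcap were each lost in 3 of these fits, with WT injured replicates 1 and 2 among the arrays left out (adjusted p of 0.0505 to 0.0747, 0.0608 to 0.0923 and 0.0504 to 0.0643), and the change of Ldb3 was -1.85 without WT control replicate 3. Tpm1, which smooth muscle and fibroblasts also make, changed by -0.84 ± 0.23 in WT (adjusted p = 0.0214), under the 2-fold limit (-1.01, past it, without WT control replicate 3), and by -1.09 ± 0.19 in Mapk9 KO (adjusted p = 0.00112), or -0.98 without Mapk9 KO control replicate 2. The probe named Mybph carries the symbol Adora1 in the intensity table, so its identity is uncertain. It changed by -1.54 ± 0.57 in WT (adjusted p = 0.0723; -2.04, adjusted p = 0.0135, without WT control replicate 2 and -0.70 without replicate 3) and was at least 6.92-fold lower in Mapk9 KO (-3.46 ± 0.23, adjusted p = 1.6e-06). Where genes had several probes, these differed in call in Mapk9 KO for Ldb3 (3 of 4 passed), Mylk2 (2 of 3), Ryr1 (3 of 4), Ttn (3 of 4) and Myh8 (1 of 2), and in WT for Ldb3 (3 of 4), Tpm2 (2 of 3) and Ttn (3 of 4). The probes that did not pass in Mapk9 KO were dim: that of Ryr1 lay between 4.00 and 6.22, that of Mylk2 between 3.56 and 5.30 and that of Ldb3 between 4.78 and 6.57. The main probe of Ldb3 read 8.01, 6.52 and 10.43 on WT controls and 4.41, 5.46 and 6.37 on WT injured arrays, and 10.19, 10.31 and 10.38 on Mapk9 KO controls and 5.45, 5.99 and 4.43 on Mapk9 KO injured arrays, with no overlap in either genotype. That of Tpm2 read 11.64, 10.56 and 13.19 on WT controls and 7.44, 9.09 and 10.22 on WT injured arrays, and 13.63, 13.67 and 13.37 on Mapk9 KO controls and 8.98, 9.68 and 7.79 on Mapk9 KO injured arrays, again without overlap. The Tpm2 probe that did not pass in WT read 10.16, 9.22 and 11.65 on WT controls and 9.15, 9.30 and 9.61 on WT injured arrays, with WT control 2 among the injured values (log2 change -0.99 ± 0.49, adjusted p = 0.168).

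All 5 energy genes fell in both genotypes. Ckm, muscle creatine kinase, which regenerates ATP at the myofibril, read 11.57, 10.88 and 13.06 on WT controls and 7.40, 9.02 and 10.21 on WT injured arrays. On Mapk9 KO arrays it read 13.74, 13.83 and 13.36 in controls and 8.17, 9.60 and 8.35 post injury. All injured arrays were below all controls, with changes of -2.96 ± 0.67 in WT (adjusted p = 0.00998) and -4.93 ± 0.33 in Mapk9 KO (adjusted p = 1.49e-06). Mb, myoglobin, the oxygen store, read 10.47, 10.27 and 12.72 on WT controls and 6.89, 8.47 and 9.74 on WT injured arrays. Its Mapk9 KO values were 12.77, 12.88 and 12.93 in controls and 8.15, 8.58 and 7.57 post injury. The order of the arrays was the same as for Ckm in WT, and Mb changed by -2.79 ± 0.74 in WT (adjusted p = 0.0198) and -4.76 ± 0.24 in Mapk9 KO (adjusted p = 2.98e-07). The WT call of Mb was lost without WT control 3 or WT injured array 1 (adjusted p = 0.0533 and 0.065). Ckmt2 (mitochondrial creatine kinase), Pygm (muscle glycogen phosphorylase) and Ampd1 (muscle AMP deaminase) changed by -3.37, -2.82 and -3.89 in WT and by -5.47, -4.27 and -5.60 in Mapk9 KO. The WT call of Pygm was lost in 4 of the 6 fits with an array left out (adjusted p = 0.0527 to 0.102), and its change was -1.72 without WT control replicate 3.

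Calls of some genes also depended on the processing or the fit. The label code of an array is a letter with a number, and this number served as a block. With all 12 arrays in the fit or the label code as a block, Casq1, Mylk2, Myl3 and Ryr1 passed in WT (adjusted p = 0.00839 to 0.0484), and Mybph with all 12 arrays (adjusted p = 0.0309), whereas Acta1 did not pass with that block (adjusted p = 0.0559). With normexp background correction and quantile normalization of the intensities, Cacna1s (-2.06, adjusted p = 0.0544), Myh4, Neb (-1.80, adjusted p = 0.0685) and Pygm (-2.42, adjusted p = 0.0576) did not pass in WT, while Tnni2 (-1.16, adjusted p = 0.0319) and Tpm1 (-1.11, adjusted p = 0.00158) did. Quantile normalization without background correction likewise passed Tnni2 (-1.14, adjusted p = 0.034) and Tpm1 (-1.09), and did not pass Casq2, Cacna1s (-1.19), Des (-2.06), Ldb3 (-1.65), Myh2 (-2.22), Myh4 (-1.85), Neb (-0.88) and Pygm (-1.69), with adjusted p of 0.0589 to 0.145. Under it the called changes of 8 of 27 main probes in WT and 11 of 41 in Mapk9 KO moved by over 1.5 times, Myh4 in Mapk9 KO from -5.55 to -3.45 for example. With undetected values set to the lowest detected value, Casq2 (-0.44), Cacna1s (-1.53), Myh4 (-2.49) and Neb (-0.91) did not pass in WT (adjusted p = 0.0571 to 0.44). In Mapk9 KO the main probes that did not pass under 1 or more of these settings were Jph1 (-0.38 without background correction and -0.08 with undetected values at that limit) and Tnni1 (-0.42 in the latter), and with the test of the methods Acta1 (adjusted p = 0.0529), Jph1 (0.0522), Myl1 (0.0557) and Tnni1.

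In controls, the muscle genes were mostly higher in Mapk9 KO than in WT by value, but only Sln passed the test. The median log2 difference, Mapk9 KO minus WT, was 1.46 over fast, 2.36 over slow, 1.38 over calcium-handling, 1.66 over shared and 1.81 over energy genes, against -0.01 over all probes. Of 44 genes 1 was called higher, where 0.0389% of all genes were, and 0 lower, where 0.11% were. Sln was at least 4.11-fold higher in Mapk9 KO controls (log2 difference 2.71 ± 0.34, adjusted p = 0.0103), in 3 of 3 arrays, but did not pass with the replicate number as a block (adjusted p = 0.131), when intensities were quantile normalized but not background corrected (1.25, adjusted p = 0.072) or with the test of the methods. Tnnt1 passed with all 12 arrays in the fit (adjusted p = 0.0114), with the label code as a block (2.07, adjusted p = 0.0387) and with undetected values at the lowest detected value (adjusted p = 0.0311), and Tnnc1 with all 12 arrays (adjusted p = 0.0407). For 17 main probes all Mapk9 KO controls lay above all WT controls, which held for 4.28% of the main probes of all genes, and 5 of these were slow genes: Myl2 (4.00 ± 0.89, adjusted p = 0.297), Tnnc1 (3.23 ± 0.64, adjusted p = 0.177), Myoz2 (2.39 ± 0.68, adjusted p = 0.543), Tnnt1 (2.36 ± 0.41, adjusted p = 0.0861) and Myl3 (2.36 ± 0.57, adjusted p = 0.375).

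The result rested on WT control replicate 3. Its label code has the number 2, as have those of Mapk9 KO control replicates 2 and 3. The other WT controls and Mapk9 KO control replicate 1 have the number 1. What the number stands for is not said in the labels. With WT control replicate 3 left out, 35 of 44 genes were called higher in Mapk9 KO controls, where 1.89% of all genes were. These were 10 of 12 fast, 6 of 7 slow, 5 of 9 calcium-handling, 9 of 11 shared and 5 of 5 energy genes. Myl2 then differed by 5.37 ± 0.37 (adjusted p = 9.31e-05), and main probes near 0 were those of Tpm1 (-0.25 ± 0.25), Tpm3 (0.021 ± 0.24), Myl1 (0.049 ± 0.25) and Jph2 (0.16 ± 0.33). Myl1 counts among the 10 fast genes through its dimmer probe, at 2.94 ± 0.21 (adjusted p = 9.45e-05). Without WT control replicate 1, Mapk9 KO control replicate 1 or Mapk9 KO control replicate 2, no gene was called. Of the 5 measured erythroid markers, which the marrow of the bone could bring, none passed in any comparison, and their summed signal ranged from 44720 to 78989 on WT controls and from 58865 to 88819 on Mapk9 KO controls.

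**Figure D5:**
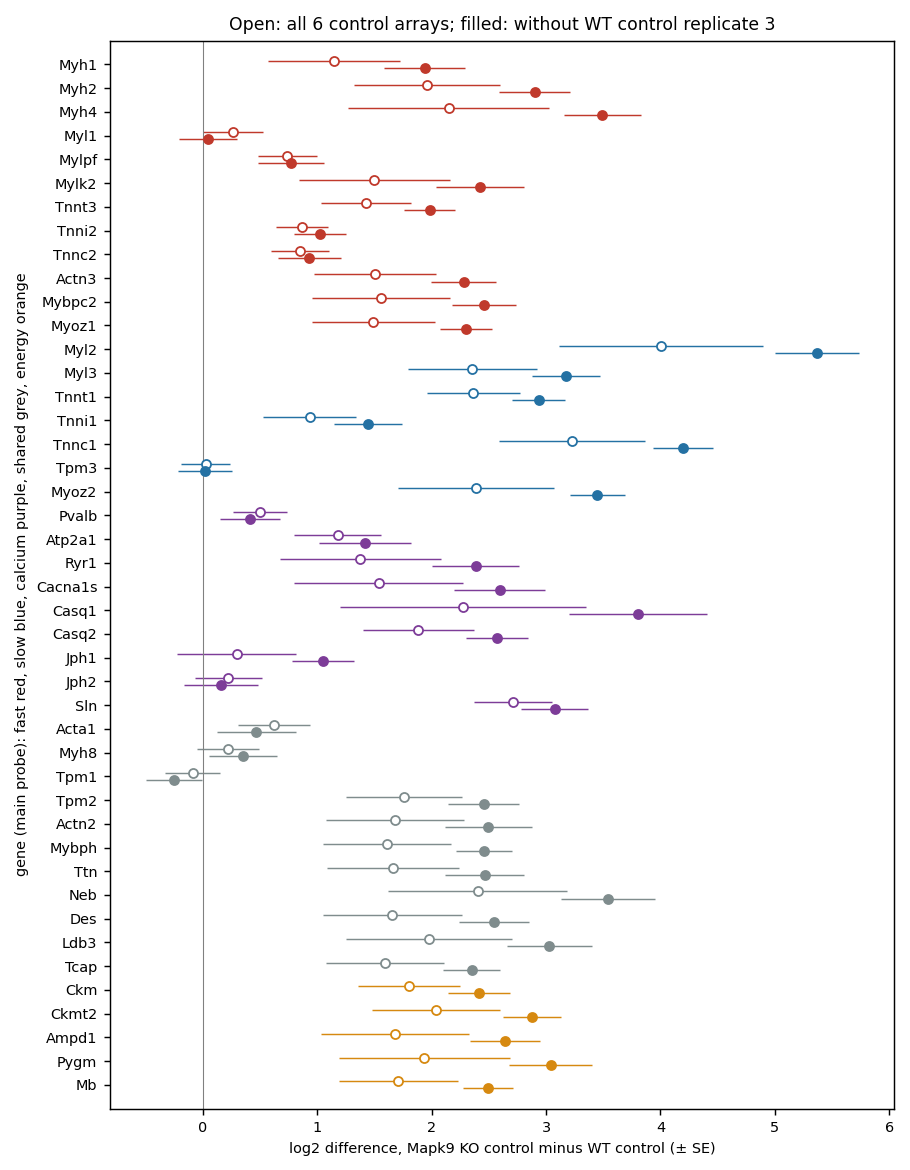
Log2 difference between Mapk9 KO and WT controls for the main probe of each gene (± SE, from limma), with all 6 control arrays (open) and without WT control replicate 3 (filled). Most filled points lie to the right of the open points with shorter bars, the slow gene Myl2 moving from 4.00 to 5.37, while the main probes of Tpm3, Tpm1, Myl1 and Jph2 remain near 0.

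Whether the change post injury differed between genotypes was tested as the interaction over all 12 arrays. No probe of the table passed (0%; 2088 had an unadjusted p under 0.05), and 13 of the 44 main probes had an unadjusted p under 0.05. The interaction was below 0, a larger fall in Mapk9 KO, for 43 of 44 main probes. Its medians were -1.39 for fast, -2.86 for slow and -1.57 for calcium-handling genes, against -0.04 over the main probes of all genes. The genotypes differed mostly in the controls, with fast means of 11.09 in WT and 12.38 in Mapk9 KO, and slow means of 8.50 and 10.69. On injured arrays these means were 8.51 and 8.36 for fast genes, and 8.02 and 7.53 for slow genes. The smallest p among the muscle genes was that of Tnnt1, with -2.86 ± 0.52 (adjusted p = 0.267; 0.0447 with the replicate number as a block, the only muscle gene to pass). That of Myl2 was -5.52 ± 1.29 (adjusted p = 0.282). Without WT control replicate 3, 18 muscle genes passed, all with a larger fall in Mapk9 KO: 6 fast, 5 slow, 3 calcium-handling and 4 shared genes, where 1.20% of all genes passed in this direction. The interaction of Pvalb was -0.38 ± 0.62 (adjusted p = 0.876), and it turned to 0.011 and 0.029 when WT injured replicate 3 or Mapk9 KO injured replicate 3 was left out.

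A list of 68 other genes of skeletal muscle was read the same way. Of these 55 had a probe in the table, and 27 fell and 0 rose in WT, where 8.24% of all genes fell and 8.35% rose, while 39 fell and 1 rose in Mapk9 KO, where 10.4% fell and 10.6% rose, with 0 called between the genotypes. WT control replicate 3 stood apart here too. The mean log2 value of these genes was 7.72, 7.43 and 9.04 on WT controls and 6.38, 6.67 and 6.94 on WT injured arrays. Calls with an array left out are not given for them. In WT 1 of 9 regulators of muscle genes fell, 8 of 17 membrane and triad genes, 9 of 16 sarcomere and costamere genes and 9 of 13 metabolic genes. Myod1 was detected on no array, and Myog changed by -0.42 ± 0.21 in WT (adjusted p = 0.171). Among the largest falls measured on both sides in WT were those of Pdlim3 (a Z-disc protein; -3.17 ± 0.67, adjusted p = 0.00721), Hrc (a calcium-binding protein of the reticulum; -3.13 ± 0.55, adjusted p = 0.00273), Cox7a1 (-3.04 ± 0.69, adjusted p = 0.0097) and Cox8b (-3.01 ± 0.68, adjusted p = 0.00953), the last 2 being muscle forms of cytochrome oxidase subunits. Phkg1, a subunit of phosphorylase kinase, was detected on no WT injured array and was at least 3.70-fold lower there. The gene that rose in Mapk9 KO was Cacna2d1, by at least 1.19-fold on its second probe.

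Markers of other cell types moved beside the muscle genes. Of the 7 measured chondrocyte markers 5 rose in WT, where 8.35% of all genes did, and 6 in Mapk9 KO, where 10.6% did, and their summed signal lay between 26071 and 42086 on WT controls and between 57027 and 70002 on WT injured arrays. In Mapk9 KO it lay between 24855 and 37671 on controls and between 51783 and 63959 on injured arrays. Matn1, cartilage matrix protein, changed most, by 3.16 ± 0.33 in WT (adjusted p = 0.000135) and 3.07 ± 0.24 in Mapk9 KO (adjusted p = 4.04e-06). A second probe of Col11a1 fell in WT (-1.26 ± 0.22, adjusted p = 0.00254), while its main probe changed by 0.85 ± 0.25. Of 7 cardiac markers only Actc1, which developing skeletal muscle also makes, had a probe in the table, and it followed the muscle genes with -3.69 ± 0.79 in WT (adjusted p = 0.00755) and -5.98 ± 0.43 in Mapk9 KO (adjusted p = 2.55e-06). Both measured adipocyte markers of 5, Car3 and Cidec, fell in both genotypes, and Car3 is also made by slow muscle fibers. Of 2 measured tendon markers Scx fell in both genotypes and Fmod in neither, 1 of 4 measured smooth muscle markers (Myh11) fell in WT and 2 (Myh11 and Acta2) in Mapk9 KO, where 1 (Smtn) rose on 1 of its probes, and 1 of 5 endothelial markers, Cdh5, rose in WT. The part of the tissue's makeup in the changes of the muscle genes was not tested.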

How the data were processed

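Illumina mouse BeadChips of 12 hip cartilage samples were analysed, 3 per group. The authors used negative control beads to correct the background, then vsn, and deposited log2 values for 21004 probes. The deposited intensity of 45281 probes, uncorrected, came with a detection p-value of each probe per array. Gene symbols were those of the deposited log2 table. Upstream versions are not given in the sources used here. Precision was limited by the number of arrays.

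limma 3.58.1 under R 4.3.3 (lmFit, eBayes) was fitted to every probe and p-values were adjusted by Benjamini-Hochberg across the table, for injury within each genotype (6 arrays), for genotype in controls (6 arrays) and for the interaction (12 arrays). Threshold: fold above 2 and adjusted p under 0.05, the interaction adjusted p alone. A bound ("at least") compares a group with the dimmest detected probe of each array where none of the dim group's arrays detected the probe. The genes, their roles and the other lists were chosen with earlier results of these data known. Values on every array are given for 5 fast, 4 slow and 6 calcium-handling genes and further genes named by role, and for the main probe of genes whose probes differed in call. Samples with the same replicate number deviated together (correlation 0.153 to 0.390 in all 18 pairs, -0.289 to 0.0825 in the 36 others), so the numbers were taken as pairing the samples. The labels state no pairing. Deviations were taken from group means, which pulls the correlations of the others down when those of the pairs are positive. The main fits did not use the pairing. Alternatives were quantile normalization of the intensities with normexp background correction (offset 16) or without, array medians subtracted, probes detected on at least 3 arrays, undetected values at the lowest detected value, a block for the replicate number or for the label code, Student's t-test, all 12 arrays in each fit, the main probe or all probes per gene, no fold limit, and each array left out.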

Additional observations from a re-analysis of the deposited data

How the results depend on the processing

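Precision was limited by 3 arrays per group. The cause was not tested for any change below.

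For injury in WT, Student's t-test with adjustment called 1624 probes but 0 muscle genes (0 fast, 0 calcium handling), and quantile normalization without background correction called 1140 probes and 2 calcium-handling genes. Dropping the fold limit called 5319 probes in WT and 8045 in Mapk9 KO. With the replicate block, the label code block or all 12 arrays in the fit, 1 slow gene was called in WT, and the replicate block gave 29 muscle genes in WT and 42 in Mapk9 KO. For injury in Mapk9 KO, quantile normalization without background correction called 1756 probes, with medians of -3.39 for fast, -2.36 for slow and -2.02 for calcium-handling genes. That of calcium-handling genes was -2.88 with normexp and quantile normalization, -2.86 with undetected values at the lowest detected value and -2.93 over all probes.

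Between controls, 0 muscle genes (0 calcium handling) were called with the replicate block, Student's t-test (0 probes) and quantile normalization without background correction (13 probes). The label code block called 2, of which 1 slow, and all 12 arrays in the fit 3, of which 2 slow (44 probes). The replicate block called 112 probes for the interaction, 1 of them of a muscle (slow) gene, and without background correction the interaction median of calcium-handling genes was -0.83.

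With single arrays left out, calls in WT ranged over 14 to 34 muscle genes, 7 to 11 fast, 0 to 1 slow and 1 to 8 calcium-handling genes, with medians of -3.26 to -2.04 for fast, -0.63 to 0.62 for slow and -2.34 to -1.07 for calcium-handling genes. The calcium-handling median in Mapk9 KO ranged over -3.64 to -3.27. Between controls, 17 to 412 probes, 0 to 35 muscle genes, 0 to 10 fast, 0 to 6 slow and 0 to 5 calcium-handling genes were called, with a calcium-handling median of 0.59 to 2.38. For the interaction, 0 to 242 probes, 0 to 18 muscle genes, 0 to 6 fast, 0 to 5 slow and 0 to 3 calcium-handling genes were called, with medians of -2.17 to -0.90 for fast, -3.63 to -2.52 for slow and -2.59 to -0.59 for calcium-handling genes. The sign turned in WT for Myl2 without WT control replicate 3 (0.68) and without WT injured replicate 1 (0.015), for Myoz2 without WT control replicate 3 (0.62), for Tnnc1 with array medians subtracted (0.037), without WT control replicate 3 (0.95) and without WT injured replicate 1 (0.28; range over single arrays left out -0.63 to 0.95), for Tnnt1 without WT control replicate 1 (-0.19) or 2 (-0.078; range -0.19 to 0.72), for Tnni1 without WT control replicate 3 (0.23; range -0.57 to 0.23), and for Myh8 without WT control replicate 3 (0.042) and when WT injured replicate 2 was dropped (range -0.32 to 0.205). It also turned for Myh8 between controls without Mapk9 KO control replicate 3 (range -0.045 to 0.36), and for the interaction of Pvalb without WT injured replicate 3 (0.011) or Mapk9 KO injured replicate 3 (range -0.90 to 0.029). Other turns were those of Jph2 in Mapk9 KO without Mapk9 KO injured replicate 1 (-0.28), of Jph1 between controls without WT control replicate 2 (-0.18) and with undetected values at the lowest detected value (-0.16), and of Jph1 and Jph2 for the interaction with the latter (0.18 and 0.10), and values between -0.10 and 0.085 in the comparisons of Jph2, Myh8, Myl1, Tpm1 and Tpm3.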

Other observations

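The intensity table names 8 further probes for these genes, 7 for Ttn and 1 for Ampd1, which the normalized table carries under other names. They were left out of the counts above. The Ampd1 probe changed by -3.84 in WT (limma, adjusted p = 0.0039) and -5.37 in Mapk9 KO (adjusted p = 4.46e-06), and the 7 Ttn probes by -3.33 to -0.07 in WT and -4.93 to -0.57 in Mapk9 KO.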
